A study of Mus musculus with 40 samples.

Results

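The transcript levels of unmodified control clones of mpkCCD cells under vasopressin receptor stimulation are described here, as a reference for what this collecting duct line expressed. The members are the 8 libraries labelled control clone, replicates 1 to 5 and 9 to 11, out of 40 samples in the series and out of 22 with a column in the deposited table. mpkCCD is an immortalized line of mouse kidney collecting duct cells. All 8 libraries carry the genotype label WT. The labels do not say whether each replicate number is a separate clone or a separate culture of 1 clone. The p-values below set a difference against the spread among these libraries only. Whether that spread covers independent clones is unknown. The cells were polarized on permeable supports, first in a medium with serum, insulin, dexamethasone, triiodothyronine and epidermal growth factor, and then in a simple medium that kept dexamethasone, selenite and transferrin. That second medium held 0.1 nM dDAVP, a synthetic vasopressin analogue, for 72 h, and no library without dDAVP was analysed here. No knockout library enters any result.

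The collecting duct is the last segment of the nephron, where the final water, sodium and acid content of urine is set. Its principal cells take up sodium through the epithelial sodium channel ENaC and water through aquaporin-2, and vasopressin acts on them through the V2 receptor, the G protein Gs, cyclic AMP and protein kinase A. Its intercalated cells move acid or bicarbonate with the vacuolar proton pump and anion exchangers. Transcription factors of the CREB family, which bind the cyclic AMP response element (CRE), are among the known substrates of protein kinase A.

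Levels are given in TPM, transcript abundances scaled to the same total in every library and corrected for transcript length, so that genes can be set beside each other within a library. How deeply each library was sequenced is unknown. A gene is called expressed where it reached at least 1 TPM in all 8 libraries. A gene with 0 TPM in all 8 is called listed at 0, which is not the same as absent: 5 of the 13 mitochondrial protein-coding genes, mt-Co2, mt-Co3, mt-Atp6, mt-Atp8 and mt-Nd4l, were listed at 0 while mt-Cytb stood at 3748 TPM ± 766 (SD, n = 8). Between 17296 and 19878 genes were above 0 in each library. Pearson correlations of log2(TPM + 1) across 13375 genes lay between 0.947 and 0.975 for pairs of the 8 libraries, and genes are not independent replicates in such a value. The control clones numbered 6 to 8 were kept apart: ribosomal protein genes took between 14.4% and 15.3% of their TPM against 2.69% to 4.15% in the 8 libraries, and their correlations with the 8 lay between 0.792 and 0.840. Control clone 3 had the fewest genes above 0 and the lowest of the 28 correlations within the 8.

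Of 55414 genes in the table, 11748 were expressed (21.2%). Of 21970 protein-coding genes, 10680 were expressed (48.6%) and 6074 were listed at 0 (27.6%), while 1956 reached at least 100 TPM in every library (8.9%). At least 1000 TPM in every library was reached by 49 genes. The mass of the transcriptome was spread over many genes: the 10 most abundant held 4.02% ± 0.415 of the TPM (SD, n = 8), the 100 most abundant held 15.4% ± 0.634, and 1072 genes were needed to reach 50% of the mean TPM.

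The most abundant transcripts were nuclear, cytoskeletal and mitochondrial. Malat1, a long noncoding RNA retained in the nucleus, stood at 10562, 5561, 4295, 6988 and 8113 TPM in control clones 1 to 5 and at 4976, 3124 and 4352 TPM in control clones 9 to 11. Gm37376 headed the ranking with a mean of 6244 TPM ± 2299 (SD, n = 8), but its gene model awaits experimental support (biotype TEC) and it lies within Malat1 on the opposite strand on chromosome 19, and reads of the 2 cannot be told apart without strand. Actb, cytoplasmic beta-actin, followed with 4955 TPM ± 431. Krt18, the keratin of simple epithelia, had 4903 TPM ± 422, and its range over the libraries was narrow, from 4180 to 5340 TPM. Atp5b, the catalytic beta subunit of mitochondrial ATP synthase, had 3457 TPM ± 524.

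Genes of detoxification and metal storage were also among the 25 most abundant. Gstm1, a glutathione transferase, stood at 3036 TPM ± 366, the ferritin chains Ftl1 and Fth1 at 2635 TPM ± 259 and 2460 TPM ± 259, and Mt1, a metallothionein, at 2285 TPM ± 688. The secreted protein Wfdc2 had 2227 TPM ± 497, and it was lowest in control clone 4 at 1252 TPM. Bsg, the chaperone of lactate transporters, had 2131 TPM ± 451. Also among the 25 most abundant genes were mt-Cytb, mt-Nd1, mt-Co1, S100a6, S100a11, Itm2b, Pfn1, Eef1a1, Ppia and the 4 glycolytic genes Pkm, Tpi1, Ldha and Gapdh.

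**Figure D1:**
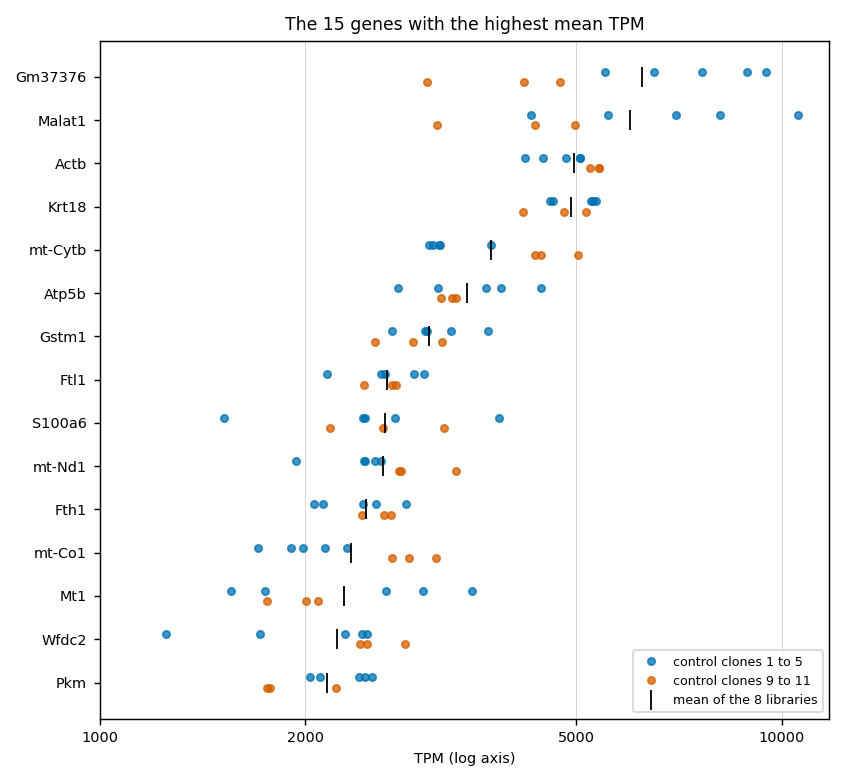
TPM on a log axis of the 15 genes with the highest mean over the 8 control clone libraries, with 1 point for each library and a black mark at the mean. The libraries of control clones 9 to 11 sit at the low end for Gm37376 and at the high end for mt-Cytb and mt-Co1, while Krt18 spans only 4180 to 5340 TPM.

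Glycolysis was expressed as a whole: 15 of 15 genes of a list added after the levels were seen passed 1 TPM everywhere, against 48.6% of protein-coding genes, and 12 averaged 100 TPM or more. Pkm, pyruvate kinase, had 2157 TPM ± 291 (SD, n = 8) and Ldha, lactate dehydrogenase A, 1751 TPM ± 306. Levels within the list differed widely, with the hexokinase Hk1 at 271 TPM, the phosphofructokinase Pfkl at 470 TPM and the glucose transporter Slc2a1 at 73.0 TPM. Their sum over the list ran from 9295 to 13880 TPM among the libraries.

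The label of a collecting duct principal cell line was then set against its markers. Of 16 principal cell genes, 11 were expressed (68.8%, against 48.6% of protein-coding genes), 6 averaged 100 TPM or more, and none was listed at 0. The 6 genes given as marks of the line, Aqp2, Aqp3, Avpr2, Scnn1a, Gata3 and Tfcp2l1, were all expressed. They are themselves among the 16, and the list was chosen with earlier results of these data known. These counts are therefore a description and not an independent check of the label. The summed level of the 16 genes ran from 1826 to 3885 TPM.

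Aqp2 (ENSMUSG00000023013, chromosome 15) encodes the water channel that vasopressin moves to the apical membrane. It was at 1006, 1285, 1041, 798 and 1537 TPM in control clones 1 to 5 and at 1627, 641 and 2279 TPM in control clones 9 to 11, a mean of 1277 TPM with a 3.56-fold span. The lowest and the highest library were both among control clones 9 to 11, so the sets overlapped. The log2 difference of the sets, 9 to 11 minus 1 to 5, was 0.27 (limma adjusted p = 0.731), and an exact two-sided permutation test over 56 splits gave p = 0.571, where the smallest possible is 0.0179. Without control clone 11 that difference turned to -0.11.

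The vasopressin receptor varied less than Aqp2. Avpr2 (ENSMUSG00000031390, chromosome X), the V2 receptor, was at 227, 175, 121, 212 and 156 TPM in control clones 1 to 5 and at 197, 154 and 217 TPM in control clones 9 to 11. The other vasopressin receptors of the list, Avpr1a and Avpr1b, were listed at 0. Of 13 genes of V2 receptor signalling, 12 were expressed (92.3%, against 48.6% of protein-coding genes). Gnas, the alpha subunit of Gs, had 1004 TPM on average, and control clone 4 stood lowest with 504 TPM while the other 7 libraries lay between 991 and 1179 TPM. Adenylyl cyclase Adcy6 had 32.8 TPM against 0.66 TPM for Adcy3, the 1 member not expressed. Among the subunits of protein kinase A, the regulatory Prkar1a (350 TPM) and Prkar2b (119 TPM) and the catalytic Prkaca (156 TPM) stood above Prkacb (52.7 TPM) and Prkar2a (34.7 TPM). The factors at the end of the route, Atf1 and Creb1, had 41.4 and 33.3 TPM, and their coactivator Crtc2 had 51.9 TPM.

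The other aquaporins of the principal cell were far lower than Aqp2. Aqp3, which lets water out across the basolateral membrane, ran from 2.16 to 7.18 TPM with a median of 5.89 TPM, and its lowest library, control clone 10, was also the lowest for Aqp2. Aqp4, the second basolateral water channel, was at 0 TPM in control clone 3 and 3.47 TPM in control clone 1, with a median of 0.70 TPM. Of 12 aquaporin genes 4 were expressed (33.3%, against 48.6% of protein-coding genes). The second highest was Aqp5, a water channel best known from glands and lung, at 60.4 TPM ± 28.0 (SD, n = 8), followed by Aqp6, the intracellular aquaporin of intercalated cells, at 12.2 TPM ± 4.45.

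ENaC subunits were unequal. Scnn1a, the alpha subunit, was at 154 TPM ± 42.4 (SD, n = 8), Scnn1g, the gamma subunit, at 17.9 TPM ± 7.49, and Scnn1b, the beta subunit, at 0.83 TPM with a range of 0.56 to 1.32. The highest library of the beta subunit was thus below the lowest of the gamma subunit (10.2 TPM), which in turn was below the lowest of the alpha subunit (103 TPM). Kcnj1, the potassium secretory channel ROMK, did not pass 0.14 TPM in any library. Nr3c2, the mineralocorticoid receptor, had a median of 1.20 TPM, between 0.75 and 1.83, while Nr3c1, the glucocorticoid receptor, had 35.7 TPM and ran from 33.3 to 39.6. Hsd11b2, the enzyme that inactivates glucocorticoids in aldosterone target cells, had a median of 61.0 TPM, with 11.7 TPM in control clone 1 and 21.2 TPM in control clone 3, and the other 6 libraries lay between 58.3 and 92.2 TPM.

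Some subunits of the sodium pump were abundant. Atp1b1, the beta subunit, had 830 TPM, Fxyd4, the principal cell FXYD protein, 479 TPM and Fxyd2, the gamma subunit, 305 TPM. Of 15 genes of the family 7 were expressed (46.7%, near the 48.6% of protein-coding genes), and 5 averaged 100 TPM or more.

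Transcription factors of the principal cell program differed in level and in spread. Gata3 was at 200 TPM and ran from 164 to 228, while its relative Gata2 had 5.78 TPM and ran from 1.27 to 12.1. Tfcp2l1, a factor of collecting duct differentiation, was at 72.7, 73.5, 57.5, 87.7 and 87.6 TPM in control clones 1 to 5 and at 142, 94.7 and 151 TPM in control clones 9 to 11, and the sets did not overlap. The same held for 2172 of 13375 genes tested (16.2%). The Tfcp2l1 difference, 0.75 on the log2 scale, did not pass the limma test (adjusted p = 0.0666). Elf5, the ETS factor of principal cells, did not pass 0.53 TPM in any library, whereas its relatives Elf3 and Ehf stood at 412 and 270 TPM.

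**Figure D2:**
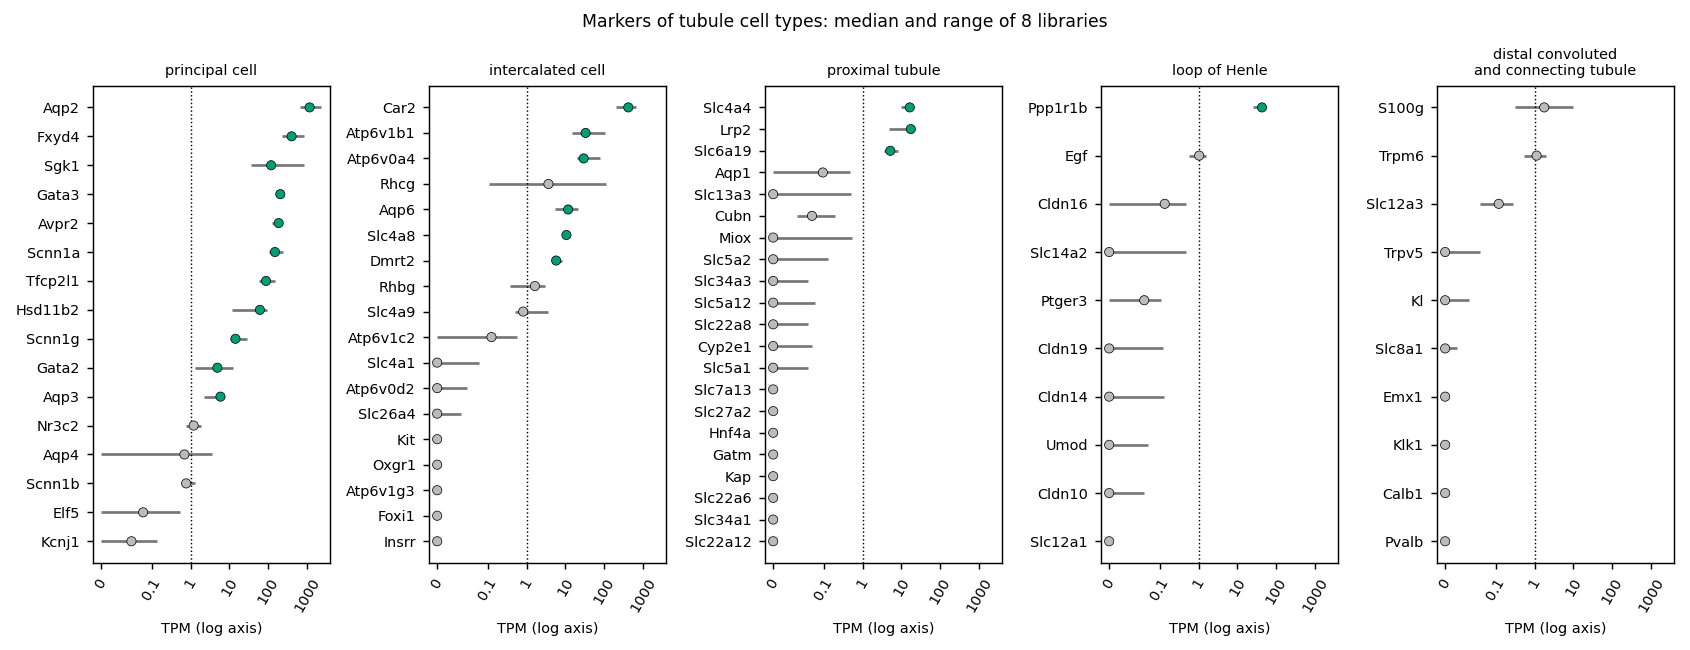
TPM on a log axis of the marker genes of 5 tubule cell types, with the median of 8 libraries as a point, the range as a bar, values of 0 drawn at the left end, and a dotted line at 1 TPM. Points are green for the genes with at least 1 TPM in all 8 libraries, which are 11 of 16 principal cell genes and none of 10 distal convoluted and connecting tubule genes.

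Of 18 intercalated cell genes 6 were expressed (33.3%, against 48.6% of protein-coding genes) and 5 were listed at 0. The summed level of the list ran from 417 to 759 TPM, of which Car2, a carbonic anhydrase that principal cells also contain, made up 426 TPM on average. Among the genes listed at 0 was Foxi1, the factor that sets intercalated cell identity, with Atp6v1g3, Insrr, Oxgr1 and Kit. The anion exchangers Slc4a1 (type A cells) and Slc26a4 (type B cells) did not pass 0.06 and 0.02 TPM. In bulk RNA, fewer cells of a type and less RNA per cell cannot be told apart.

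Beside Car2, the expressed intercalated cell genes were 2 proton pump subunits, Aqp6, Slc4a8 and Dmrt2. Atp6v1b1, the B1 subunit of the pump, was at 20.3, 30.9, 14.4, 35.4 and 19.9 TPM in control clones 1 to 5 and at 103, 90.5 and 80.0 TPM in control clones 9 to 11. Atp6v0a4, its a4 subunit, had 40.3 TPM and ran from 19.4 to 79.8. Of the 24 genes of the vacuolar pump, 19 were expressed (79.2%, against 48.6% of protein-coding genes). The B2 subunit Atp6v1b2, which is found in most cells, stood at 118 TPM. Slc4a8 had 11.1 TPM, and Dmrt2, an intercalated cell transcription factor, had 5.98 TPM with a range of 4.67 to 8.32. Rhcg, the ammonia channel, was uneven: it was at 0.36, 108, 0.11, 1.36 and 5.45 TPM in control clones 1 to 5 and at 10.3, 52.8 and 1.87 TPM in control clones 9 to 11, so that control clones 2 and 10 stood above the rest in both sets.

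Markers of the tubule before the collecting duct were mostly under 1 TPM. Of 21 proximal tubule genes 3 were expressed (14.3%, against 48.6% of protein-coding genes) and 18 did not reach 1 TPM in any library. These 3 were the sodium bicarbonate cotransporter Slc4a4 (16.6 TPM), the endocytic receptor Lrp2 (14.6 TPM) and the neutral amino acid transporter Slc6a19 (5.48 TPM). Cubn, the partner of Lrp2, did not pass 0.19 TPM, and the phosphate transporter Slc34a1, the organic anion transporter Slc22a6 and the factor Hnf4a were listed at 0. Of 10 loop of Henle genes only Ppp1r1b, a phosphatase inhibitor, was expressed, at 40.8 TPM, while Slc12a1, the furosemide-sensitive cotransporter, was listed at 0 and Umod did not pass 0.05 TPM.

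None of 10 distal convoluted and connecting tubule genes was expressed, against 48.6% of protein-coding genes. The thiazide-sensitive cotransporter Slc12a3 did not pass 0.28 TPM, and the calcium-binding proteins Calb1 and Pvalb were listed at 0. S100g, another calcium-binding protein, reached 9.70 TPM in control clone 1 and 0.32 TPM in control clone 2, with a median of 1.78 TPM. The sum over the list lay between 1.82 and 11.8 TPM.

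Markers of cells outside the tubule were low as well. None of 7 endothelial and none of 8 stromal genes was expressed, against 48.6% of protein-coding genes. Their summed levels did not pass 1.05 and 0.69 TPM. Of 7 podocyte genes Podxl (30.2 TPM) and Synpo (28.7 TPM) were expressed, while the slit diaphragm gene Nphs1 did not pass 0.08 TPM. Of 9 immune genes Csf1r (17.8 TPM) and Cd68 (7.55 TPM) were expressed, while Ptprc, the pan-leukocyte marker, did not pass 0.27 TPM and Adgre1, Lyz2 and Nkg7 were listed at 0. The Y-linked genes Ddx3y, Kdm5d, Eif2s3y and Uty were listed at 0, and Xist, which is made from an inactivated X chromosome, did not pass 0.09 TPM in any library.

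Of 18 genes of a mixed list of epithelial, mesenchymal, injury and proliferation genes, 14 were expressed (77.8%, against 48.6% of protein-coding genes). Krt8 (1538 TPM), the partner of Krt18, stood with Krt19 (1039 TPM) and Krt7 (665 TPM). The adhesion genes Cdh16 (1489 TPM), Epcam (828 TPM) and Cdh1 (773 TPM) were high, whereas Vim, the mesenchymal filament gene, did not pass 0.05 TPM and Cdh2 had a median of 1.36 TPM. Lcn2, a secreted protein that rises in stressed tubules, had 1009 TPM ± 253 (SD, n = 8), while the proximal injury marker Havcr1 was listed at 0. The proliferation genes Top2a and Mki67 had 197 TPM ± 28.5 and 31.4 TPM ± 4.78.

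Of 15 claudins, genes of the tight junction, 10 were expressed (66.7%, against 48.6% of protein-coding genes) and 7 averaged 100 TPM or more. The highest were Cldn7 (650 TPM), Cldn6 (624 TPM), Cldn3 (420 TPM) and Cldn8 (289 TPM). The claudins of the thick ascending limb were low: Cldn16, Cldn19, Cldn14 and Cldn10 did not pass 0.49, 0.12, 0.13 and 0.04 TPM. Cldn2, the leaky claudin of the proximal tubule, was expressed at a median of 17.9 TPM and reached 62.8 TPM in control clone 1.

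Upstream sequence of 4 genes is shown next, 3 expressed genes and 1 that was listed at 0, since base composition and motif shares of such windows are compared between expressed genes and genes listed at 0. The windows come from RefSeq on GRCm38.p6 and overlap no annotated exon, and they were chosen after their levels were seen. Capitals mark matches on either strand to 4 short motifs. The core of the CRE was searched as TGACG. The motif bound by GATA factors was searched as AGATAA. The TATA box was searched as TATAAA, and the CCAAT box by the letters of its name. Aqp2 lies at chr15:99578806-99579045 on the plus strand, Tfcp2l1 at chr1:118627695-118627934 on the plus strand, Atp1b1 at chr1:164458366-164458605 on the minus strand, and Slc34a1, listed at 0, at chr13:55399398-55399637 on the plus strand.
Aqp2: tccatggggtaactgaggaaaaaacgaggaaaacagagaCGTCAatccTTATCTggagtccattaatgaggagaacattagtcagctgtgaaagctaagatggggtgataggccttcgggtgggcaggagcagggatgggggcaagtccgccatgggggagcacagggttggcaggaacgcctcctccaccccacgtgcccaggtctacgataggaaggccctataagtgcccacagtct
Tfcp2l1: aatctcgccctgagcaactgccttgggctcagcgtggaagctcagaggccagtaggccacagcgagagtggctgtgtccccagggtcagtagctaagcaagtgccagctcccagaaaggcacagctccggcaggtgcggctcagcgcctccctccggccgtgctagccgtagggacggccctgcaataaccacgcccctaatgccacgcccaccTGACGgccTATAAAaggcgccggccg
Atp1b1: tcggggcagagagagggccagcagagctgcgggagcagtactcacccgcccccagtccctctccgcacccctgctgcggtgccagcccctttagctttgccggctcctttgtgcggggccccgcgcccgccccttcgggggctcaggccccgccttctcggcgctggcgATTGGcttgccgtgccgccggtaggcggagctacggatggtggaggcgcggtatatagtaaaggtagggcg
Slc34a1: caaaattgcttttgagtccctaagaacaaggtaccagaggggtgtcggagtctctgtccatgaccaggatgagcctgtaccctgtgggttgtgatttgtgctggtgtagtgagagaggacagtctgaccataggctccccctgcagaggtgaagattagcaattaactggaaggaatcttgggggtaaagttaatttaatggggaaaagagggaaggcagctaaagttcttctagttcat

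The Aqp2 window held a match to the CRE core on the minus strand at position -211 from the start of the gene and a GATA match on the minus strand at -202. The Tfcp2l1 window held the CRE core at -36 and a TATA box at -28, and the Atp1b1 window held a CCAAT match on the minus strand at -81 and no other. The Slc34a1 window held none of these motifs. These windows had 55%, 65%, 70.4% and 47.1% G and C, with 7, 16, 23 and 1 CpG, in the same order. A match is a description of letters, not a site.

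Over all protein-coding genes with 1 window of 250 bases before the start, 6832 windows belonged to expressed genes and 4128 to genes listed at 0, out of 14067. The median share of G and C was 60.4% in the former and 45.6% in the latter, against 55.2% in all windows, and the median number of CpG was 17 against 2. The full CRE, TGACGTCA, was in 3.06% of windows of expressed genes, in 0.92% of those listed at 0 and in 2.04% of all. Its core TGACG, which is part of the full CRE, was in 29.7%, 9.93% and 20.4%. The TATA box went the other way, with 5.62% of expressed genes, 24.3% of genes listed at 0 and 13.0% of all, as did AGATAA with 5.09%, 15.0% and 9.18%. CCAAT was in nearly equal shares, 37.9%, 37.7% and 36.9%. The part of base composition in these shares was not tested.

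Of 41 G protein-coupled receptors on the list, 11 were expressed (26.8%, against 48.6% of protein-coding genes) and 12 were listed at 0. Gprc5c (463 TPM) and Gprc5a (168 TPM), receptors without a settled ligand, flanked Avpr2 in the order of levels. Adora1, the A1 adenosine receptor, had 91.0 TPM within 83.3 to 97.6, and the thrombin receptor F2r 75.4 TPM. Prostaglandin E2 receptors were split: Ptger1 had a median of 49.0 TPM and Ptger4 of 11.5 TPM, Ptger3 did not pass 0.11 TPM, and Ptger2 was listed at 0. P2ry2, a receptor for extracellular ATP and UTP, had 24.3 TPM. The endothelin receptors Ednra and Ednrb, the angiotensin receptors Agtr1a, Agtr1b and Agtr2, the calcitonin receptor Calcr and the dopamine receptor Drd1 were listed at 0, and the parathyroid hormone receptor Pth1r did not pass 0.52 TPM.

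Of 33 receptor tyrosine kinases 17 were expressed (51.5%), near the 48.6% of protein-coding genes. Fgfr2, a receptor for fibroblast growth factors of the ureteric epithelium, led with 241 TPM, from 157 in control clone 5 to 298 in control clone 3. Erbb2 (161 TPM), Met (127 TPM), the receptor for hepatocyte growth factor, and Erbb3 (89.1 TPM) stood above Egfr (47.5 TPM), whereas Erbb4 did not pass 0.14 TPM. Insr and Igf1r had 15.5 and 16.4 TPM. Ret, the receptor of the ureteric bud tip, was listed at 0.

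Of 45 nuclear receptors 21 were expressed (46.7%), also near that share. Nr2f6 was highest with 199.5 TPM, Nr1h2 (a liver X receptor) had 101 TPM and Rxrb 71.0 TPM. Thra, a thyroid hormone receptor, had 38.7 TPM, while Thrb did not pass 0.05 TPM. Vdr, the vitamin D receptor, ran from 0.84 TPM in control clone 3 to 6.03 TPM in control clone 9, with 0.90 and 1.36 TPM in control clones 2 and 10. Pparg, Esrrg and the Hnf4 genes were listed at 0, and Esrrb stood at 55.1 TPM.

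Of 9 genes of a list for insulin, glucocorticoid and thyroid hormone response, 8 were expressed (88.9%, against 48.6% of protein-coding genes). Whether their levels depended on a hormone was not tested. Tsc22d3 (GILZ), a glucocorticoid-induced gene, was at 809 TPM and Fkbp5, another, at 234 TPM ± 29.5 (SD, n = 8). The library with the lowest level was control clone 5 for both, and dexamethasone was in the medium of all 8.

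Kidney developmental factors marked the ureteric lineage. Of 43 kidney transcription factors 21 were expressed (48.8%, against 48.6% of protein-coding genes). Pax8 was at 278 TPM and ran only from 264 to 310, Grhl2 was at 62.8 TPM, Emx2 at 47.4 TPM and Pax2 at 9.87 TPM. Lhx1, Six2, Tfap2b, Pou3f3 and Irx1, factors of nephron progenitors or of other segments, were listed at 0, and Wt1 did not pass 0.08 TPM. Nfat5, the tonicity-responsive factor, had 44.1 TPM.

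Factor families were filled unevenly. All 4 Tead genes, 7 of 8 Smad genes (87.5%) and 6 of 7 Stat genes (85.7%) were expressed, against 48.6% of protein-coding genes. In families this small a single gene moves the share. Tead2 (71.4 TPM), Smad4 (111 TPM) and Stat6 (114 TPM) were highest in their families. Among Ets factors 17 of 26 were expressed (65.4%). Among forkhead factors it was 17 of 45 (37.8%), led by Foxn3 (68.2 TPM), and among Sox factors 5 of 19 (26.3%), led by Sox4 (96.8 TPM). Of the Iroquois genes Irx2 alone was expressed, at 7.08 TPM.

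**Figure D3:**
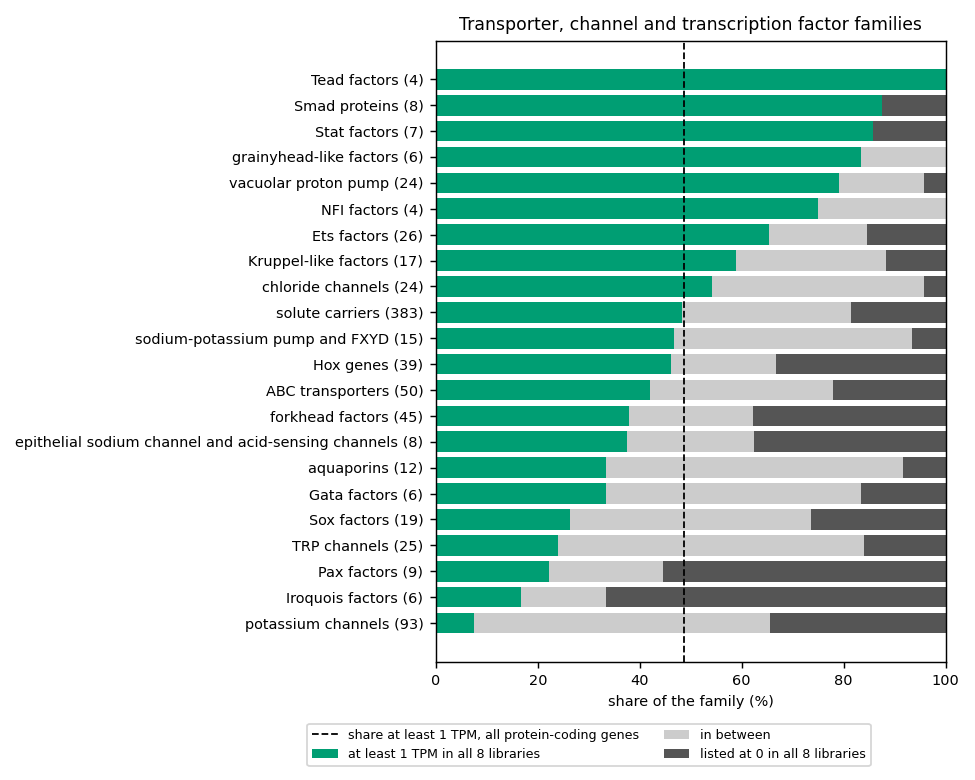
Share of each gene family, in percent with the number of members in brackets, that reached at least 1 TPM in all 8 libraries (green), was listed at 0 in all 8 (dark) or fell in between (light). The dashed line marks the 48.6% of all protein-coding genes that were expressed, with Tead factors at 100% and potassium channels at 7.53%.

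Of 39 Hox genes, which record position along the body axis, 18 were expressed (46.2%, near the 48.6% of protein-coding genes). Hoxb7, a gene of the ureteric duct, stood at 176 TPM and Hoxd8 at 130 TPM. No Hoxc gene passed 0.15 TPM in sum over the cluster in any library. The Hoxa cluster on chromosome 6 set control clone 1 apart: its 11 genes summed to 17.0 TPM there and to between 118 and 137 TPM in the other 7 libraries. Hoxa9 was at 0.47 TPM in control clone 1 and at 38.1, 37.3, 34.2, 41.9, 34.3, 33.3 and 33.5 TPM in control clones 2 to 5 and 9 to 11. Hoxa7 was likewise at 0.47 TPM there and at 17.5 to 28.1 TPM elsewhere. Hoxa9 and Hoxa7 were singled out after their values were seen. Of the 9 Hoxa genes above 0, control clone 1 was lowest for 8, while for Hoxb it was lowest for none of 9 and for Hoxd for 3 of 6. Sums over Hoxb and Hoxd in control clone 1 were 340 and 195 TPM, against 314 to 394 and 209 to 259 TPM elsewhere.

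Of 383 solute carriers 185 were expressed (48.3%, against 48.6% of protein-coding genes), led by the mitochondrial carriers Slc25a5 (611 TPM), the adenine nucleotide translocator, and Slc25a3 (495 TPM), the phosphate carrier. Lists by substrate were drawn up after the levels were seen. For glucose, 2 of 10 were expressed, Slc2a1 and Slc2a8 (27.1 TPM), while the sodium-driven Slc5a1 and Slc5a2 did not pass 0.04 and 0.13 TPM. For phosphate and sulphate, 2 of 6 were expressed, the housekeeping transporters Slc20a2 (67.6 TPM) and Slc20a1 (19.2 TPM). For amino acids 9 of 12 were expressed, with the large neutral transporter Slc7a5 (150 TPM) beside its heavy chain Slc3a2 (403 TPM).

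Cation-chloride cotransport was led by Slc12a2 (NKCC1, 53.1 TPM) and the potassium chloride cotransporters Slc12a7 (50.4 TPM) and Slc12a4 (38.1 TPM). For sodium-proton exchange 3 of 8 genes were expressed (37.5%, against 48.6% of protein-coding genes), with Slc9a8 (53.1 TPM) highest. The brush border exchanger Slc9a3 was listed at 0. Anion exchange was led by Slc4a11 (132 TPM) and Slc4a2 (122 TPM). Slc6a6, the taurine transporter, stood at 191 TPM and the inositol transporter Slc5a3 at 37.5 TPM, both osmolyte carriers, while the urea transporters Slc14a1 and Slc14a2 did not pass 0.34 and 0.49 TPM.

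Potassium channels were the sparsest family, with 7 of 93 genes expressed (7.53%, against 48.6% of protein-coding genes). Kcnk1, a 2-pore channel, made up most of it with 393 TPM ± 46.3 (SD, n = 8) of a family sum between 423 and 596 TPM, followed by Kcnq1 (41.4 TPM) and Kcnk5 (23.2 TPM). Among TRP channels Trpv4, a flow- and swelling-sensitive calcium channel, had 303 TPM. Of 24 chloride channel genes 13 were expressed (54.2%, against 48.6% of protein-coding genes), with Ano6 (126 TPM) and Clcc1 (124 TPM) highest.

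The spread between libraries was small for most genes. Among 9766 expressed genes averaging 8 TPM or more, the median coefficient of variation was 13.9%, and 140 genes (1.43%) passed 50%. Mgst1, a microsomal glutathione transferase, was the most variable: it was at 153 TPM in control clone 1 and between 1.02 and 15.3 TPM in the other 7. Ces1d, a carboxylesterase, was also highest in control clone 1 (80.8 TPM), Gsdmc3, a gasdermin, in control clone 3 (127 TPM), and Cited1, a transcriptional coactivator, in control clone 4 (40.6 TPM). Slco3a1, an organic anion transporter, was highest in control clone 1 (29.1 TPM) and next in control clone 3 (19.7 TPM).

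Of these 140 genes, 50 were highest in control clone 3 and 28 in control clone 1, against 6 to 13 in each other library. Pseudogenes made up 15 of the 140, and 13 of these were highest in control clone 3, among them Gm10177 (76.9 TPM there, 4.31 to 10.8 TPM elsewhere). Pseudogenes as a class took 0.911% of the TPM in control clone 3 and 0.592% to 0.664% in the other 7. They share sequence with their parent genes, so their single levels are uncertain, and the part of read assignment or RNA quality was not tested.

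Control clones 1 and 3 stood apart from the other 6 in genes of sodium transport. Sgk1, the kinase that stabilizes ENaC and a target of corticosteroids, was at 829, 127, 834, 111 and 36.3 TPM in control clones 1 to 5 and at 95.1, 156 and 71.5 TPM in control clones 9 to 11. Cldn8, a claudin that seals the collecting duct against sodium and potassium, was at 569, 98.9, 577, 261 and 67.4 TPM in control clones 1 to 5 and at 251, 304 and 185 TPM in control clones 9 to 11. Both genes were thus highest in control clones 1 and 3 and lowest in control clone 5.

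The opposite order was seen in other genes, picked after their values were seen. Aqp5 was at 14.8 and 22.6 TPM in control clones 1 and 3 and between 51.8 and 84.8 TPM in the other 6. Ptger1 was at 14.4 and 11.1 TPM there and between 38.7 and 63.8 TPM elsewhere. Fxyd2 was at 115 and 189 TPM there and between 257 and 460 TPM elsewhere, and Hsd11b2, above, had its lowest values in the same libraries. Of other glucocorticoid-responsive genes, Fkbp5 was also highest in control clones 1 and 3, at 265 and 271 TPM against 173 to 234 TPM elsewhere. Per1 was at 15.0 and 14.0 TPM there, within the 11.9 to 16.6 TPM of the other 6, and Tsc22d3 at 891 and 748 TPM, within 588 to 1035 TPM.

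**Figure D4:**
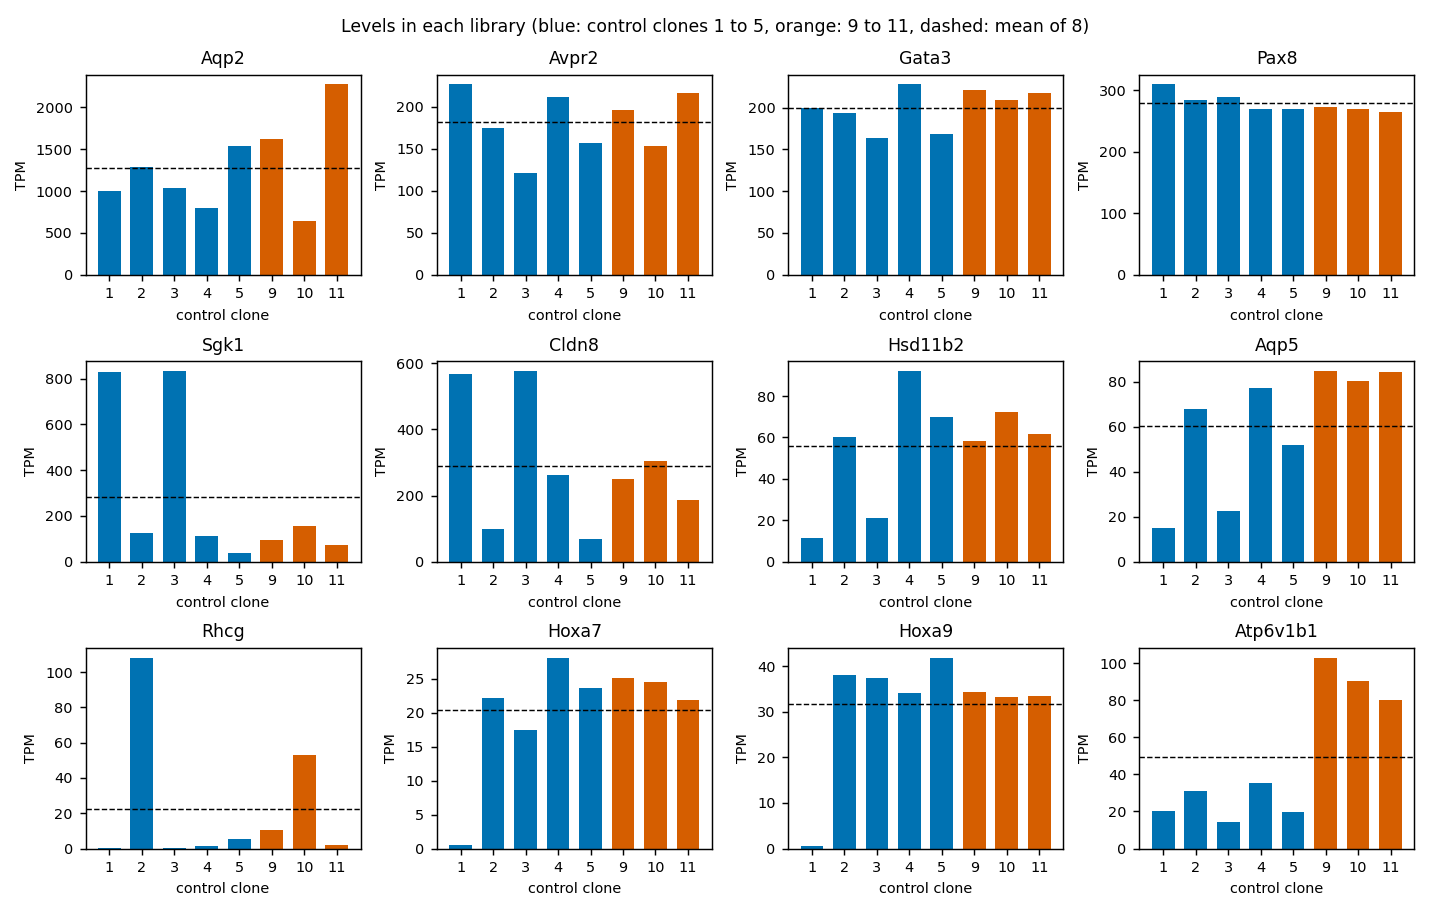
TPM of 12 genes in each of the 8 libraries, as bars from 0 (blue for control clones 1 to 5, orange for 9 to 11), with the mean dashed. Pax8 is nearly level, Sgk1 and Cldn8 are highest in control clones 1 and 3, Hoxa7 and Hoxa9 are at 0.47 TPM in control clone 1, and Atp6v1b1 is higher in all 3 libraries of control clones 9 to 11.

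The last comparison asked which levels of this baseline differed between the 2 sets of control clones, whose library numbers form separate runs. The labels do not call the runs batches, and set and run cannot be told apart. Control clones 9 to 11 differed from 1 to 5 in 342 of 13375 genes tested (2.56%) by limma on log2(TPM + 1), with 177 higher (1.32%) and 165 lower (1.23%) at an adjusted p under 0.05. At an unadjusted p under 0.05 there were 2678, and the sets did not overlap in 2172 genes (16.2%). Leaving out 1 library moved the 342 calls to 22 (control clone 9), 38 (control clone 11), 110 (control clone 2), 198 (control clone 4), 113 (control clone 5) and 111 (control clone 10). Without control clone 1 there were 276 and without control clone 3 there were 406.

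Among the genes of the cell type, receptor, factor and transporter lists, 8 of 194 tested were called, 3 higher and 5 lower in control clones 9 to 11. Over all genes it was 342 of 13375 (2.56%). No principal cell gene was among the 8, but with 13 tested at that share few or no calls were to be found. Stability of these genes cannot be read from it. Of the 8 called genes, Atp6v1b1 had the largest difference, from 24.2 TPM ± 8.66 (SD, n = 5) to 91.1 TPM ± 11.4 (SD, n = 3). Its log2 difference was 1.93 ± 0.26 (SE, limma adjusted p = 0.0114). Its call was lost without control clone 9 (adjusted p = 0.103) or 11 (adjusted p = 0.0566). The other 8 intercalated cell genes tested were not called. Among them Atp6v0a4 went from 27.2 to 62.1 TPM (limma adjusted p = 0.116), with overlapping sets. Car2, Rhbg and Slc4a8 had negative log2 differences.

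Emx2, a factor of the ureteric bud, rose from 41.3 to 57.4 TPM (limma adjusted p = 0.0358) and the nuclear receptor Nr6a1 from 3.32 to 6.79 TPM (limma adjusted p = 0.0178). Lower in control clones 9 to 11 were Slc3a2 (442 to 338 TPM), Slc4a2 (138 to 93.9 TPM), Nr1h2 (114 to 80.0 TPM), F2r (84.3 to 60.6 TPM) and Cldn7 (718 to 537 TPM), with limma adjusted p-values between 0.0218 and 0.0439. All 7 lost the call without at least 1 of control clones 9 and 11.

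Atp1b1, the beta subunit of the sodium pump, differed in the same comparison and was picked after its values were seen. It went from 718 TPM ± 38.7 (SD, n = 5) to 1017 TPM ± 79.5 (SD, n = 3), a log2 difference of 0.50 (limma adjusted p = 0.0237). The call held in 11 of 15 alternatives and was lost without control clone 2, 9 or 11 and with no filter on low values.

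Over all genes, the largest differences outside the lists were of mixed function. Max, the dimer partner of Myc, was at 8.58, 5.93, 4.93, 6.60 and 6.24 TPM in control clones 1 to 5 and at 40.7, 38.5 and 26.5 TPM in control clones 9 to 11, a log2 difference of 2.27 ± 0.19 (SE, limma adjusted p = 0.00154). Raly, an RNA-binding protein, was at 34.8 to 38.8 TPM against 87.2 to 118 TPM (log2 difference 1.53). Also higher were Cotl1, an actin-binding protein (log2 difference 2.17), Mettl7a1 (1.96), Swsap1 (1.84), Paip2b (1.68) and the unnamed gene ENSMUSG00002076975 (4.34), which was at 0 TPM in 4 of the 5 libraries of control clones 1 to 5.

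Fmnl3, a formin that nucleates actin filaments, was the most separate of the lower genes, at 120 to 145 TPM in control clones 1 to 5 and at 41.7, 47.6 and 52.8 TPM in control clones 9 to 11, and fell by 1.44 on the log2 scale (limma adjusted p = 0.00111). Tspan13 fell by 2.06, P4ha2, a collagen prolyl hydroxylase, by 1.52, and Slc25a48 by 1.33. Max, Raly, Mettl7a1, Paip2b, Fmnl3 and Tspan13 kept their calls under all 15 alternatives.

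The histone genes H2ac4, H2ac8, H1f5 and H4c4, whose messages lack a poly(A) tail, fell by 2.48, 2.29, 2.21 and 1.76 on the log2 scale, and as members of multigene families their single levels are uncertain. Replication histone genes summed to between 204 and 336 TPM in control clones 1 to 5 and to between 118 and 148 TPM in control clones 9 to 11. The ribosomal RNA gene Rn18s-rs5 fell with them, from 1036 to 443 TPM, while mitochondrial genes took 0.941% to 1.13% of the TPM in the former set and 1.21% to 1.42% in the latter. The part of RNA quality or library preparation in these differences was not tested.

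**Figure D5:**
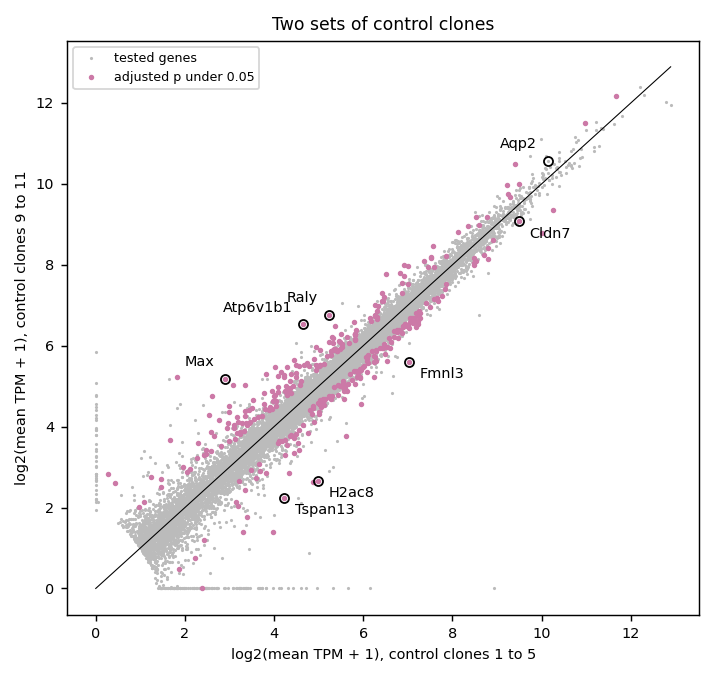
Mean level of each of 13375 tested genes in control clones 1 to 5 (horizontal) and 9 to 11 (vertical), as log2(mean TPM + 1), with the 342 genes of adjusted p under 0.05 coloured and 8 genes named. Aqp2 and Cldn7 lie near the line of equal level, and Max, Atp6v1b1 and Raly lie above it.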

How the data were processed

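RNA of mpkCCD cells was made into cDNA with a template-switching kit and PCR, tagmented and sequenced in pairs, per the labels' protocols. The deposited values are TPM per gene, which the authors made with STAR and RSEM per the submitters' processing notes. Versions, genome build and annotation are not given in the sources used here. All columns have the same total, so the depth cannot be read from them, and counting intervals were not computed.

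Names, biotypes and chromosomes were taken from GENCODE M21 (52133 of 55414 identifiers found), upstream sequences from RefSeq on GRCm38.p6. Where a symbol had several rows, the one with the highest mean was used. All 22 per-sample columns were mapped, and 18 samples of the series have no column analysed here.

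Means are given with SD over 8 libraries. Control clones 9 to 11 were compared with 1 to 5 in limma 3.58.1 (R 4.3.3, lmFit and eBayes with trend) on log2(TPM + 1), pseudocount 1, for genes averaging 1 TPM or more, with p-values adjusted by Benjamini-Hochberg across the 13375 genes and a threshold of 0.05. A fold change on this scale understates the change of low genes. In a simulation of this comparison with 200 of 13375 genes changed by 2 on the log2 scale, 184 were recovered with 8 false calls. Values were drawn independently for each gene, so shifts shared by the genes of a library were left out. Recovery of smaller differences, such as -0.38 for Slc3a2, was not simulated, and the false calls to be found in the real libraries cannot be read from it.

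The members and gene lists were chosen with earlier results of these data known. Named genes were the 25 most abundant, members of the lists, up to 5 expressed genes per family, the 6 most variable with a mean of at least 8 TPM, and up to 8 called genes per direction whose sets did not overlap. Alternatives changed the expression threshold, the scaling, the pseudocount, the filter, the trend and the libraries. Some genes are not reported here.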

Additional observations from a re-analysis of the deposited data

Results flagged for a closer look

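The 8 libraries were checked in 231 genes: every gene described above with a mean of at least 1 TPM, plus the expressed cell type markers, the 25 most abundant genes and the 5 highest expressed genes of each family. In 18 of them (7.79%) the distance of 1 library from the nearest other exceeded Dixon's 95% limit. Chance alone passes that limit in about 5% of groups, and several of the genes were named because 1 library stood out, so the share says nothing beyond the single values.

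Control clone 1 was set apart in 6 genes. It was the highest for Mgst1, at 153 TPM against 15.3 TPM for the next library, for Ces1d, at 80.8 TPM against 18.5 TPM, and for S100g, at 9.70 TPM against 2.88 TPM. It was the lowest for the Hox genes Hoxa10, at 6.45 TPM against 37.0 TPM for the next, Hoxa9, at 0.47 TPM against 33.3 TPM, and Hoxa7, at 0.47 TPM against 17.5 TPM.

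Control clone 3 was the highest in 6 genes. These were Klf6, a Kruppel-like factor, at 239 TPM against 172 TPM, Abcf1, a translation-associated ABC protein, at 134 TPM against 106 TPM, Gsdmc3 at 127 TPM against 26.02 TPM, and the pseudogene Gm10177 at 76.9 TPM against 10.8 TPM. The gaps were smaller for Pkd2, the polycystin-2 channel, at 60.8 TPM against 55.1 TPM, and for Atf1 at 48.95 TPM against 42.65 TPM.

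Control clone 4 was the lowest for Gnas, at 504 TPM against 991 TPM, and the highest for Pfn1, profilin, at 2401 TPM against 1960 TPM, and for Cited1, at 40.6 TPM against 7.03 TPM. Control clone 5 was the lowest for Fkbp5, at 173 TPM against 231 TPM. Control clone 2 was the highest for Slc7a5, at 208 TPM against 157 TPM, and control clone 11 for ENSMUSG00002076975, at 59.0 TPM against 27.2 TPM.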

How the results depend on the processing

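Under a threshold of 0.5 or 5 TPM, a threshold on the mean, all 11 control clone libraries, rescaling over nuclear protein-coding genes, or leaving out 1 library, the number of expressed genes stayed between 9813 and 13374. Under these settings the principal cell count lay between 9 and 13 and the intercalated cell count between 5 and 9, while the podocyte, endothelial and stromal counts stayed at 2, 0 and 0. At 5 TPM 1 proximal tubule gene and 1 immune gene remained above the threshold. The loop of Henle count was 2 at 0.5 TPM and 2 by the mean, and the distal convoluted and connecting tubule count was 1 at 0.5 TPM, 2 by the mean and 0 to 1 with 1 library left out. The 10 most abundant genes held 4.61% of the TPM over all 11 control clone libraries and 3.23% after rescaling. Aqp2 averaged between 1134 and 1368 TPM over its alternatives.

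The 342 genes called between the sets became 109 with no filter on low values (101 shared) and 214 without the trend (190 shared), and 22 to 406 with 1 library left out. Leaving out 1 of 3 libraries leaves fewer samples. The log2 difference of Aqp2 ran from -0.11 to 0.80 with 1 library left out, and its reversal came without control clone 11. Of the values of 27 named genes of the comparison, the call was lost in 25 of 185 under other settings and in 84 of 216 with 1 library left out, and no direction turned. The cause was not tested. No paired analysis was possible because the replicate numbers of the control clones do not repeat between the 2 sets. TPM gives no depth, so low levels carry no counting error here.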
